A study of Arabidopsis thaliana with 3 samples.

Results

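The 60 genes described here encode proteins of the large, or 60S, subunit of the cytosolic ribosome in Arabidopsis thaliana and fall into 22 protein families, from L3 to L39, each with 2 to 4 listed paralogs. They were chosen as a list of loci with earlier results of these data known, so the counts of calls are no independent test. A locus was found on the array where the table of features named its gene, and a feature given more than 1 gene identifier was taken as naming none. This gave 47 features for 45 of the 60 genes, against 16830 named genes on the array in all. The 15 genes without a feature all carry a gene symbol beside the locus name, as do only PGY1 and PGY2 among the 45. Why these genes lacked a feature was not tested. The acidic stalk proteins P0, P1 and P2 were not included. Each of 3 one-colour arrays of 28785 features held total RNA of rosette leaves of the Col-0 accession at 2 weeks. Wild type had 1 array. Plants 41 and 45, here line 41 and line 45, had 1 array each and express AtMYB23SRDX under the 35S promoter, a promoter active in most plant tissues. MYB23, a MYB transcription factor, is known for starting leaf hairs, and the SRDX tail fused to it makes it repress its targets. The labels do not say how many plants made up a sample or whether the lines were independent transformants, and MYB23 itself was not measured here.

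The large subunit forms the peptide bond and passes the new protein out through its exit tunnel. Arabidopsis keeps several genes for nearly every ribosomal protein, so each ribosome holds 1 of several near-identical paralogs at a given position, and loss of single paralogs is known to alter leaf shape and embryo development. Transcripts of these genes are known to be abundant in growing tissue and to follow the cell's demand for protein synthesis.

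All values are on the log2 scale as deposited, and a change is the mean of the lines minus wild type. Tests are limma's, fitted over 16905 features with Benjamini-Hochberg adjustment and called at an adjusted p under 0.05. The spread in this fit came from the difference between line 41 and line 45 alone, and the lone wild-type array was assumed to vary like them. limma drew each gene's spread toward that of features of similar signal. With 1 residual and 6.76 prior degrees of freedom, each standard error owed more to that shared spread than to the gene's own lines. Anything particular to that wild-type array enters every change, so the array and the genotype cannot be told apart. The medians of the arrays over all features were 5.96, 5.89 and 5.91 in wild type, line 41 and line 45. The 99th percentile was lower in wild type, at 9.62, than in line 41 at 10.63 and line 45 at 10.54. Leaf identity could be checked on 1 of 8 leaf markers, RCA, which read 11.90, 14.13 and 13.75 in wild type, line 41 and line 45. RCA was itself called higher by limma (log2 change 2.04 ± 0.26 SE, adjusted p = 0.00146). Its other features also lay above wild type in both lines. Of 6 markers of dividing shoot tissue 1 was named on the array, the centromeric histone gene HTR12, at 6.04, 5.76 and 5.99. None of the 4 root and 3 flower markers was named. The share of young or dividing tissue in the samples was not tested.

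Most of the measured 60S genes were higher in both lines. Of the 45 tested, 30 rose (66.7%), where 14.6% of all features tested were called higher and 11.1% of the named genes. None of the 45 was called lower, and none had a lower value at an unadjusted p under 0.05, while 7.27% of all features were called lower. Their median change was 1.38, against -0.038 over all features, and the middle of the distribution ran from 0.51 at the lower quartile to 2.33 at the upper. The rises ran from 2.03-fold to 14.5-fold with standard errors between 0.19 and 0.31 over all 45 changes. In bulk tissue a change in the share of cells and a change in RNA per cell cannot be told apart.

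By size alone, with no test, 27 of the 45 were at least 2-fold higher in both lines, against 9.77% of all features. Both lines lay above wild type in 42 of the 45, against 39.1% of features. No feature of these genes was dim, since all 47 lay above the dim filter's level of 5.64 on each array. No gene therefore entered the test only through the lines.

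**Figure D1:**
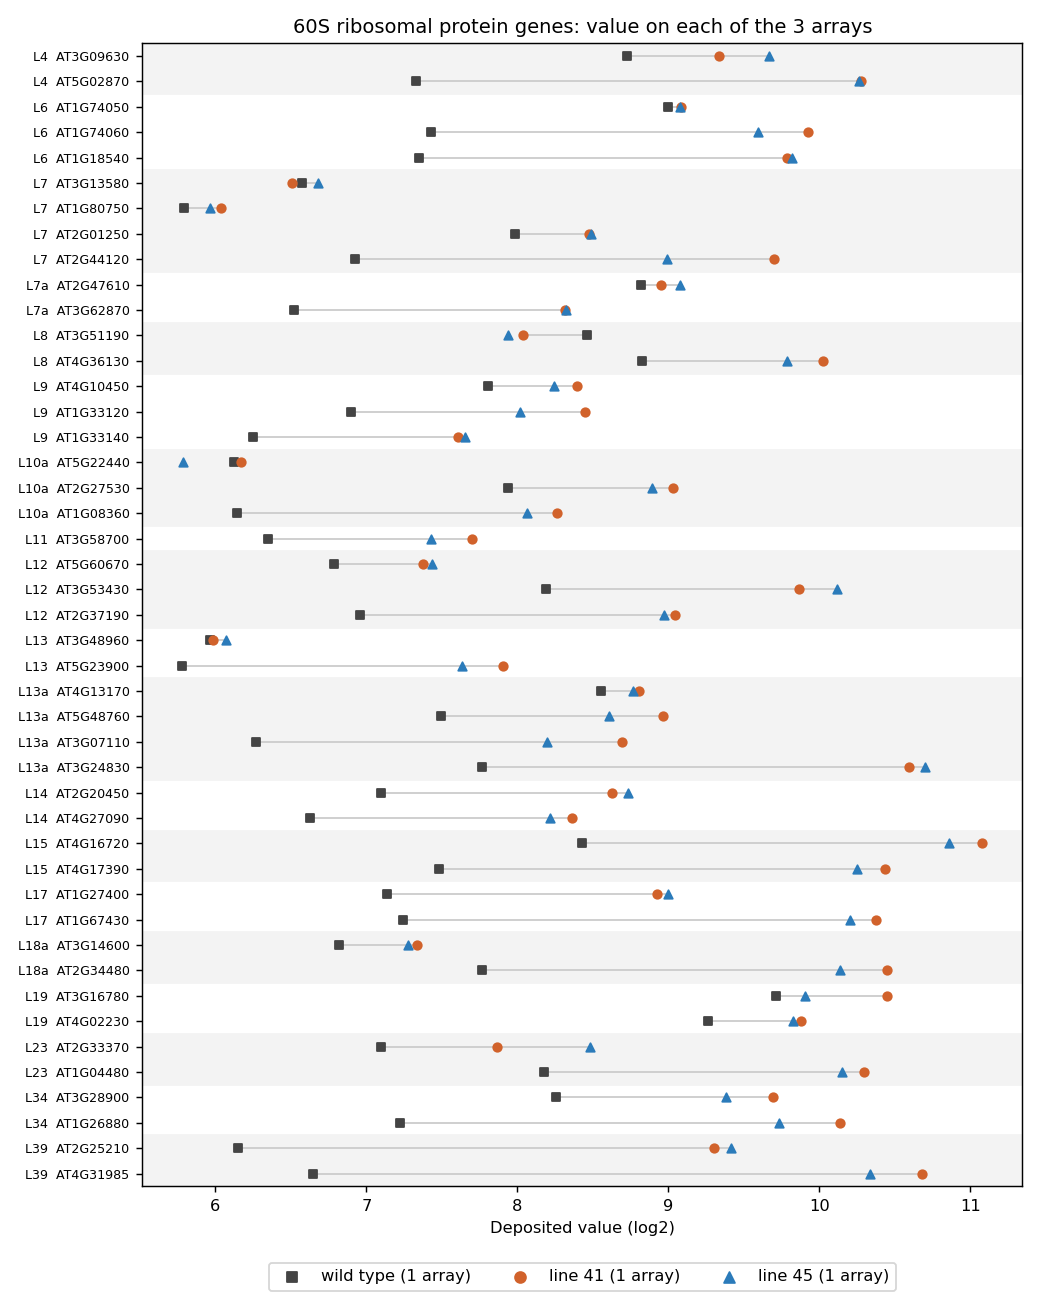
Deposited log2 value (horizontal axis) of 45 genes for 60S proteins, ordered by family, in wild type (squares), line 41 (circles) and line 45 (triangles), 1 array each. Both lines lay to the right of wild type in 42 of the 45 genes, and the distance differed between paralogs of a family.

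Of the proteins that line the exit tunnel, L39 is a very small one set into the tunnel wall. The L39 gene AT4G31985 read 6.65, 10.68 and 10.34 in wild type, line 41 and line 45, a 14.5-fold rise (log2 change 3.86 ± 0.25 SE, 2 lines against 1 array, adjusted p = 0.000288). Its paralog AT2G25210 read 6.15, 9.30 and 9.41 and rose 9.25-fold (3.21 ± 0.23, adjusted p = 0.000288). Both paralogs were far above wild type in both lines, which lay within 0.4 of each other.

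L17 and L4 reach into the same tunnel. AT1G67430, for L17, read 7.24, 10.37 and 10.21 in wild type, line 41 and line 45 and rose 8.26-fold (3.05 ± 0.24), the third highest change of the 45. The other L17 gene, AT1G27400, read 7.14, 8.92 and 8.996 and rose 3.54-fold (1.82 ± 0.23). Both L17 genes thus passed the test, with changes 1.34 apart in line 41 and 1.10 apart in line 45.

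The 2 genes of L4 differed more. AT5G02870 read 7.33 in wild type and 10.27 in both lines and rose 7.68-fold (2.94 ± 0.23, adjusted p = 0.000303). AT3G09630 read 8.73, 9.33 and 9.67 and did not pass (0.77 ± 0.25, adjusted p = 0.0650). It lay above wild type in both lines and passed when each array was centred on its median (0.83, adjusted p = 0.0275), and its adjusted p ran from 0.0275 to 0.441 over the alternatives.

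Near the peptidyl transferase centre, where the peptide bond forms, L3, L8 and L10 take part. No feature was named for the listed L3 genes (RP1 and RPL3B) or L10 genes (SAC52, RPL10B and SAG24), and these are not reported. For L8, AT4G36130 read 8.83, 10.03 and 9.79 in wild type, line 41 and line 45 and rose 2.12-fold (1.08 ± 0.24, adjusted p = 0.0170). That call was lost after quantile normalization (0.48, adjusted p = 0.115) and once the trend with signal was taken out (0.62, adjusted p = 0.102), with an adjusted p between 0.00392 and 0.137 over the alternatives. AT3G51190, the other L8 gene measured, read 8.46, 8.04 and 7.94. It was the 1 gene of the 45 with a change of over 0.2 below wild type in both lines (-0.47 ± 0.23, adjusted p = 0.179), and it was called lower after quantile normalization (-0.83, adjusted p = 0.0170, and up to 0.249 over the alternatives).

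L5 and L11 bind the ribosome's small 5S RNA and enter the large subunit with it. The listed L5 genes, ATL5 and RPL5B, and the L11 genes RPL16A and RPL16B had no feature named. The remaining L11 gene, AT3G58700, read 6.35, 7.70 and 7.43 in wild type, line 41 and line 45 and rose 2.32-fold (1.21 ± 0.23, adjusted p = 0.00881).

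Around the stalks of the subunit, where elongation factors bind and spent tRNA leaves, all 3 families had members that rose and 1 member each that did not pass. L12 sits at the base of the acidic stalk. The L12 gene AT2G37190 read 6.96, 9.04 and 8.97 in wild type, line 41 and line 45 and rose 4.13-fold (2.05 ± 0.23), and AT3G53430 rose 3.48-fold (1.80 ± 0.24). AT5G60670 read 6.79, 7.38 and 7.44 (0.62 ± 0.22, adjusted p = 0.0806) and passed when arrays were centred on the median (0.68, adjusted p = 0.0444), and its adjusted p ran from 0.0444 to 0.153 over the alternatives.

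L10a forms the mobile stalk beside the exit site of tRNA, and PGY1 (AT2G27530), known from leaf polarity, encodes it. AT1G08360 read 6.14, 8.26 and 8.06 in wild type, line 41 and line 45, a 4.04-fold rise (2.02 ± 0.23). PGY1 read 7.94, 9.03 and 8.89 and rose 2.03-fold (1.02 ± 0.23, adjusted p = 0.0175), the lowest change among the 30 called. A second feature of PGY1 read 6.93, 7.76 and 7.52, and with that feature in its place, a setting chosen after seeing the data, the gene stood at 0.71 and did not pass (adjusted p = 0.0663, in alternatives that ran from 0.00423 to 0.122). The third L10a gene, AT5G22440, read 6.12, 6.17 and 5.78 and its lines lay on either side of wild type (-0.14 ± 0.23, adjusted p = 0.704).

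L9 lies near the factor-binding site, and PGY2 (AT1G33140), a further gene named from leaf polarity mutants, encodes it. PGY2 read 6.25, 7.61 and 7.65 in wild type, line 41 and line 45 and rose 2.61-fold (1.38 ± 0.22, adjusted p = 0.00367). Its neighbour AT1G33120, with 0 protein-coding genes between them in the RefSeq table, rose 2.52-fold (1.33 ± 0.26). These neighbours changed by nearly the same amount. AT4G10450 read 7.80, 8.40 and 8.24 and did not pass (0.51 ± 0.23, adjusted p = 0.153).

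L19 and L23 lie on the face that meets the small subunit. L19 was the 1 family of the 18 with at least 2 tested paralogs in which none passed. AT3G16780 read 9.72, 10.45 and 9.91 in wild type, line 41 and line 45 (0.46 ± 0.29, adjusted p = 0.297), and AT4G02230 read 9.26, 9.88 and 9.83 (0.59 ± 0.23, adjusted p = 0.111). Both stood above wild type in both lines as deposited, and both lay below it after quantile normalization, at -0.50 and -0.21.

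L23 binds, in yeast and mammals, the factor that keeps free large subunits from joining small ones. Both measured L23 genes rose. AT1G04480 read 8.18, 10.29 and 10.15 in wild type, line 41 and line 45 (4.12-fold, 2.04 ± 0.24), and AT2G33370 read 7.10, 7.86 and 8.48 (2.11-fold, 1.08 ± 0.29, adjusted p = 0.0348). The latter was the called gene with the highest adjusted p, and its rise was 0.77 in line 41 and 1.38 in line 45.

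The remaining families are structural proteins bound to the ribosomal RNA of the large subunit. Both genes of L15 rose, AT4G17390 by 7.27-fold (7.48, 10.43 and 10.25 in wild type, line 41 and line 45) and AT4G16720 by 5.83-fold (8.43, 11.08 and 10.86). Both genes of L14 rose by nearly the same amount, AT4G27090 by 3.16-fold (6.63, 8.36 and 8.22) and AT2G20450 by 2.99-fold (7.10, 8.63 and 8.73). For L34, AT1G26880 rose 6.55-fold (7.22, 10.14 and 9.73) and AT3G28900 2.43-fold (8.26, 9.69 and 9.38). In these 3 families both lines lay at least 1 above wild type for every measured gene, and limma's adjusted p ran from 0.000341 to 0.00954.

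L6 showed a split between neighbours. AT1G74060 and AT1G74050 have 0 protein-coding genes between them in the RefSeq table. AT1G74060 read 7.43, 9.92 and 9.59 in wild type, line 41 and line 45 and rose 5.03-fold (2.33 ± 0.25, adjusted p = 0.000767). AT1G74050 read 8.998, 9.08 and 9.08, with a change of 0.083 ± 0.23 (adjusted p = 0.837), and stood at -0.49 after quantile normalization. The third L6 gene, AT1G18540, lies elsewhere and rose 5.49-fold (7.35, 9.79 and 9.82).

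In L7, 1 of 4 genes rose. AT2G44120 read 6.92, 9.70 and 8.99 in wild type, line 41 and line 45 and rose 5.36-fold (2.42 ± 0.31, adjusted p = 0.00162). A second feature of the gene read 6.44, 9.32 and 9.41, a mean change of 2.92. The gap of 0.70 between the lines in the first feature, the widest among the 45 genes, was not seen in the second, where line 45 was the higher by 0.093. AT2G01250 read 7.99, 8.47 and 8.48 (0.49 ± 0.22, adjusted p = 0.163). AT1G80750 read 5.79, 6.04 and 5.96 (0.20 ± 0.19), and AT3G13580 read 6.58, 6.51 and 6.68 (0.018 ± 0.21), so its lines lay on either side of wild type.

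L13a had 4 measured genes, of which 3 rose. AT3G24830 read 7.76, 10.59 and 10.70 in wild type, line 41 and line 45 and rose 7.36-fold (2.88 ± 0.23, adjusted p = 0.000321). AT3G07110 rose 4.53-fold (6.27, 8.69 and 8.20) and AT5G48760 2.44-fold (7.496, 8.96 and 8.61). AT4G13170 read 8.55, 8.81 and 8.76 (0.23 ± 0.23, adjusted p = 0.524) and stood at -0.19 after quantile normalization.

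L7a, L13 and L18a each had 1 gene that rose and 1 that did not pass. For L7a, AT3G62870 read 6.52, 8.31 and 8.32 in wild type, line 41 and line 45 (3.48-fold, 1.80 ± 0.22), and AT2G47610 read 8.82, 8.95 and 9.08 (0.19 ± 0.23, adjusted p = 0.609, and -0.30 after quantile normalization). For L13, AT5G23900 read 5.78, 7.91 and 7.63 (3.97-fold, 1.99 ± 0.23), and AT3G48960 read 5.97, 5.98 and 6.07 (0.059 ± 0.20, adjusted p = 0.868). For L18a, AT2G34480 read 7.76, 10.45 and 10.14 (5.78-fold, 2.53 ± 0.25), and AT3G14600 read 6.82, 7.34 and 7.28 (0.49 ± 0.22, adjusted p = 0.153). In each of these families the gene that passed had both lines well above wild type, while the other differed from wild type by 0.52 or less in each line. No feature was named for 5 further listed genes, BBC1 (L13), RPL18AA (L18a), emb2386 (L19), emb2171 (L23) and RPL34 (L34), or for the L8 gene EMB2296.

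**Figure D2:**
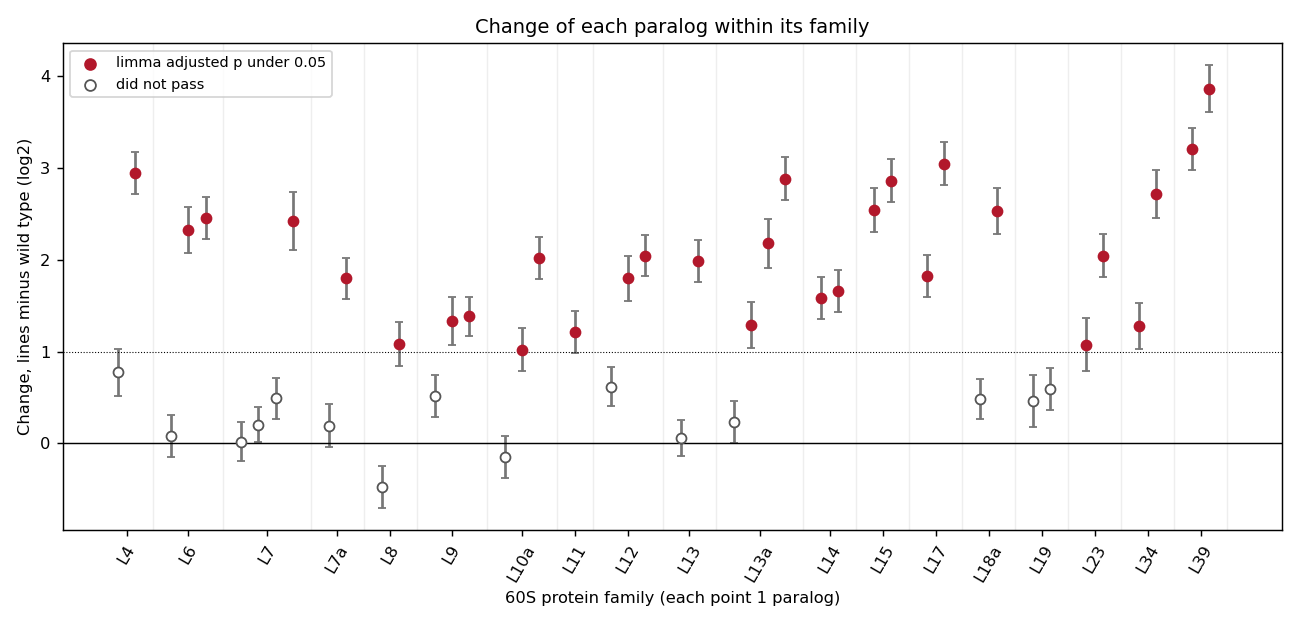
Change of each paralog (lines minus wild type, log2, vertical axis) by 60S family, with bars of 1 standard error from limma; filled points passed at an adjusted p under 0.05 and open points did not, and the dotted line marks a 2-fold rise. Among the listed genes, those of L15 and L39 were all high, while L6, L7 and L13a held both high and flat paralogs.

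Paralogs of a family therefore often had different values. Of the 18 families with at least 2 tested genes, 6 had every tested gene called higher (L14, L15, L17, L23, L34 and L39), 11 had some and not others, and 1 had none. The range of changes within a family had a median of 1.49 and reached 1 or more in 12 families. Among the 36 pairs of paralogs, 19 had changes at least 2-fold apart in the same direction in both lines, 13 pairs were called in both genes and 19 in 1 gene only. A call in 1 gene only does not show that paralogs differ, and differences between paralogs were not tested. The changes also share the wild-type array.

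The 6 greatest differences between paralogs, in the mean over the lines, were in L13a, L7, L6 and L4. AT3G24830 exceeded AT4G13170 by 2.57 in line 41 and 2.72 in line 45, a 6.27-fold difference in change. AT2G44120 exceeded AT3G13580 by 2.84 and 1.97, and AT1G80750 by 2.53 and 1.90. AT1G18540 exceeded AT1G74050 by 2.35 and 2.39, and AT1G74060 exceeded the same gene by 2.41 and 2.08. AT5G02870 exceeded AT3G09630 by 2.34 and 2.00. These gaps were several times the standard errors of the single changes (0.19 to 0.31), but those are not errors of a difference. The 6 pairs were picked for their size. Of the 19 pairs, 16 stayed at least 2-fold apart in both lines after quantile normalization and 15 once the trend with signal was taken out. Close copies can share signal on an array, and how far the features separate paralogs was not tested. Among the 45 genes the median wild-type value was 7.18 for those called higher and 7.99 for those not called. The wild-type value also enters each change, and whether signal level bears on the change was not tested.

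**Figure D3:**
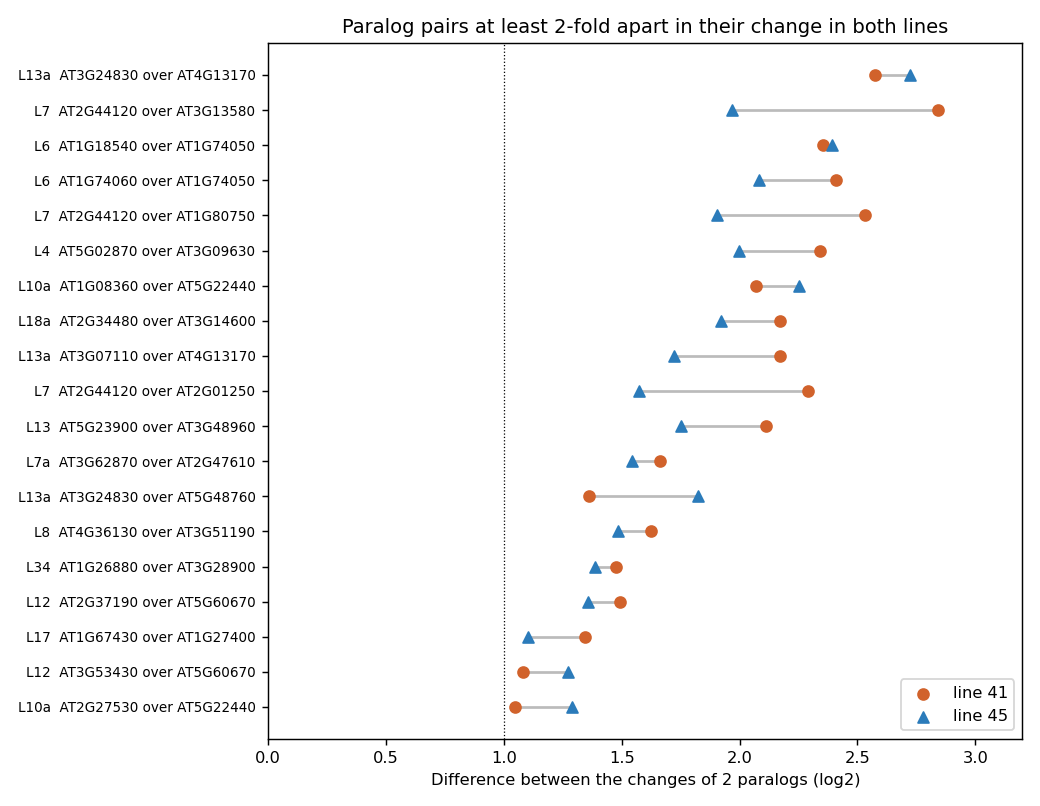
Difference between the changes of 2 paralogs of a family (log2, horizontal axis) in line 41 (circles) and line 45 (triangles), for the 19 pairs at least 2-fold apart in both lines, with the dotted line at a 2-fold difference. The widest gaps, in L13a, L7 and L6, exceeded 2 on the log2 scale in at least 1 line.

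Line 41 and line 45 gave close values for these genes, as they did for nearly all features tested. The absolute difference between the lines had a median of 0.15, and 0 of the 45 genes lay 2-fold apart, where 0.491% of all features did. Line 41 was the higher in 30 genes and line 45 in 15, against 49.6% of all features higher in line 41. Line 41 had a median change of 1.53 and line 45 of 1.40, and 29 and 28 of the genes were at least 2-fold higher, against 12.5% and 10.7% of features. Since each line had 1 array, these differences carry no test.

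Gene length, which was not used to choose the genes, was set beside the changes. The 45 genes had a median length of 1669 bases from first to last transcribed base, against 2004 for the named genes tested. Across the 45, which are not independent replicates and share the 3 arrays, length and change had a Pearson's r of -0.080 and a Spearman's rho of -0.084.

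Other genes of the cytosolic ribosome rose as well. Of 58 further loci for 60S proteins, from families such as L21, L29 and L36 with 2 remaining paralogs of L11 and L39, 42 were tested, 25 rose and 0 fell, against 14.6% of all features called higher and 7.27% lower, with a median change of 1.25. At an unadjusted p under 0.05 the lower genes numbered 0 as well. The highest were AT5G02450 (L36), which rose 12.3-fold (7.65, 11.06 and 11.48 in wild type, line 41 and line 45), AT3G06700 (L29) at 6.56-fold, AT1G09690 (L21) at 6.55-fold and AT1G77940 (L30) at 5.40-fold. In L21, AT1G57660 read 9.88, 9.44 and 9.56 and did not pass (adjusted p = 0.298), so this family too held both high and flat paralogs. Of 96 loci for proteins of the small, 40S, subunit, 67 were tested, 49 rose and 0 fell (1 was lower at an unadjusted p under 0.05), against the same 14.6% and 7.27%, with a median change of 1.13. Among the tested genes 1 of these further 60S genes and 4 of the 40S genes were dim in wild type. The lists were chosen with earlier results of these data known, and were not tested against each other or against all features.

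Factors that build ribosomes, and kinases that signal growth to them, had few measured genes. Of 27 such loci 9 were named on the array and 7 tested, of which 1 rose and 0 fell (0 lower at an unadjusted p under 0.05), against 14.6% of features called higher, with a median change of 0.42. The gene that rose was RAPTOR1 (AT3G08850), a partner of the TOR kinase, which read 6.07, 7.21 and 7.58 in wild type, line 41 and line 45 (2.51-fold, log2 change 1.33 ± 0.24, adjusted p = 0.00723). The snoRNP protein genes AT5G27120 and AT3G05060, for relatives of NOP58, stood at 0.47 and 0.64 and did not pass. The latter and AT5G14520 were dim in wild type, so 2 of the 7 entered the test only through the lines. TOR, S6K1 and S6K2 had no feature named. With 7 genes measured, no difference from the ribosomal protein genes was tested.

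**Figure D4:**
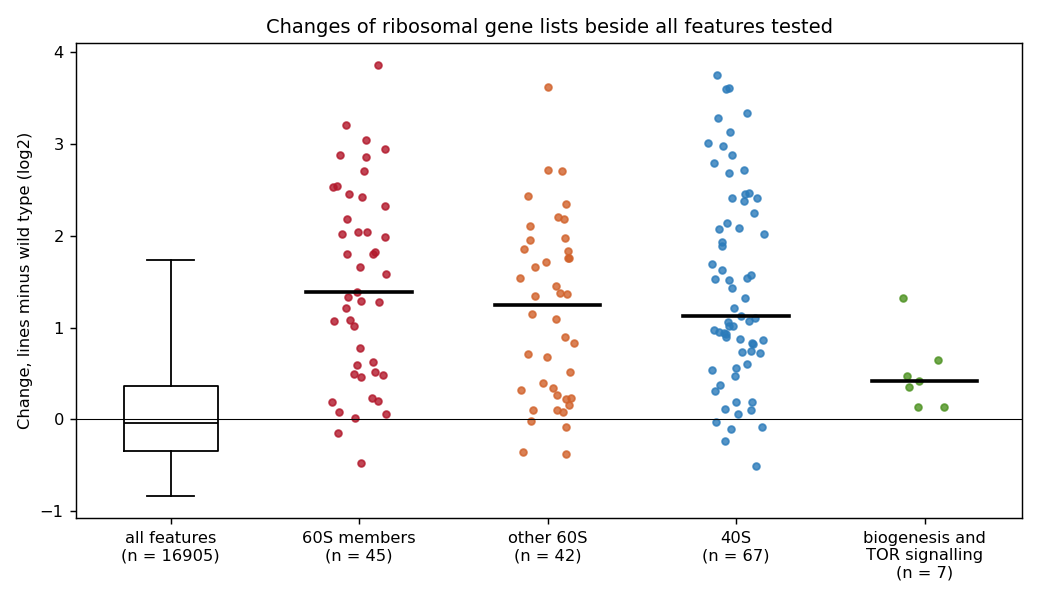
Change (lines minus wild type, log2, vertical axis) of each tested gene in 4 lists, with bars at the medians, beside all 16905 features tested, drawn as a box from the lower to the upper quartile with whiskers at the 5th and 95th percentiles. The median was 1.38 for the 45 genes described here, 1.25 for the other 60S genes, 1.13 for 40S genes, 0.42 for 7 biogenesis and TOR genes and -0.038 over all features.

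Most of the rises held under other scalings. After quantile normalization 29 of the 45 genes were called higher, all among the 30, and 1 lower, and their median was 1.33. Over all features that scaling called 15.4% higher and 15.7% lower, and higher calls made up 49.4% of calls against 66.8% as deposited. With the trend with signal taken out, 29 genes were called higher, all among the 30, with a median of 1.38, beside 16.1% of features called higher. The gene lost under both was AT4G36130. Without the dim filter, limma called 0 of 28124 features (7167 at an unadjusted p under 0.05), and so 0 of the 45 genes, with 34 of them higher at an unadjusted p under 0.05.

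**Figure D5:**
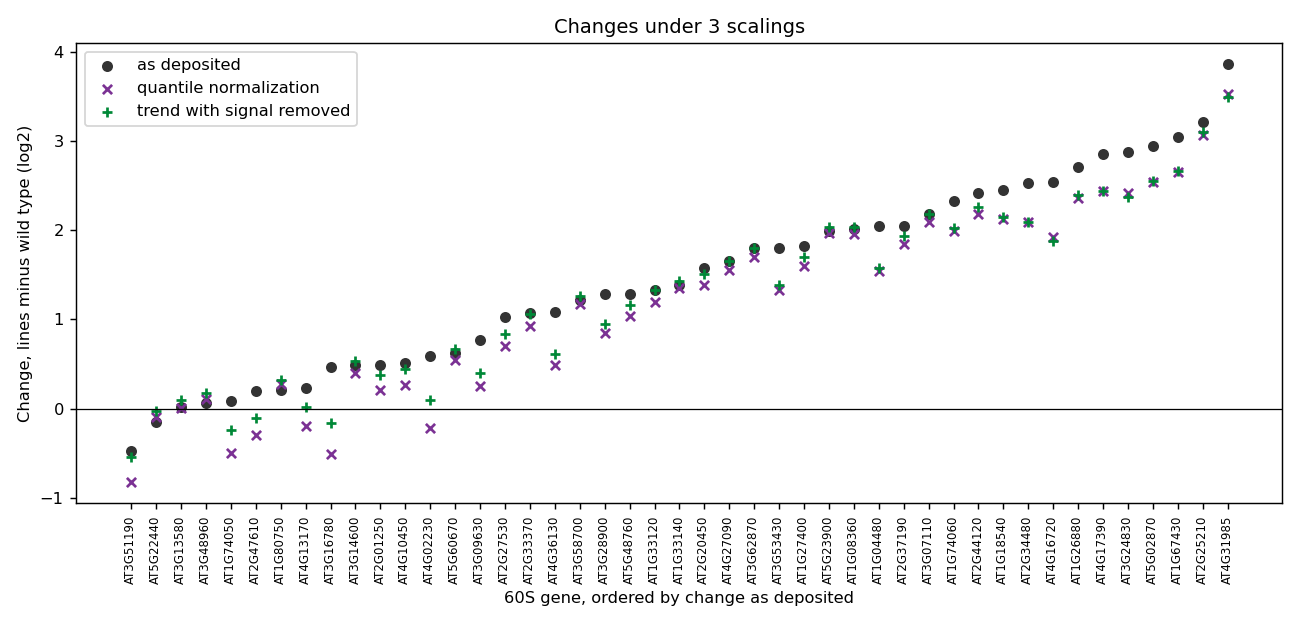
Change of each of the 45 genes (lines minus wild type, log2, vertical axis) as deposited (circles), after quantile normalization (crosses) and with the trend on mean signal taken out (plus signs), with genes ordered by the change as deposited. Both listed L39 genes, at the high end, stayed above 3 on each scale. After quantile normalization 5 genes that were not called, with changes from 0.083 to 0.59 as deposited, lay below 0.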

How the data were processed

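The authors deposited a single value for each feature on each array, read as log2 expression because the values lie between 4.04 and 14.8. Another log base would change every fold. What the authors did to make the deposited log2 values is not given: no source used here names the platform, the background correction, the normalization or any summary over probes. Columns were kept unscaled. Values under the 5th percentile (4.68) were raised to it, and features whose mean over the arrays fell short of the 40th percentile of feature means (5.64) were left out of the test. A gene with several features was represented by its brightest, leaving 16905. The number of arrays limits the precision.

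Features were paired with loci through Entrez identifiers and the RefSeq table of assembly TAIR10.1, used only for names, lengths and neighbours. The test was limma 3.58.1 in R 4.3.3 (lmFit, eBayes with trend, two-sided, 1 residual and 6.76 prior degrees of freedom), lines against wild type. The labels name no separate cultures, so the spread behind each p-value may be technical. On simulated data for this comparison, with 200 of 16905 features changed, 61% were recovered at a log2 change of 1 (7 false calls) and 100% at 2 (4 false calls). The simulated wild-type array was given the spread of the lines, so these counts cannot test whether wild type varies like them. Far more features, 3697, were called in the data than were changed in the simulation.

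The genes and lists were chosen with earlier results of these data known. Families were assigned from knowledge of the loci, and the 40S list was written by hand because the reference table holds no product descriptions. Every gene of the 60 may be named; of the other lists, up to 4 higher and 2 lower genes, with TOR and its S6 kinases. AT3G02190, AT1G57660, AT5G45775, AT5G46430, AT3G53740, AT5G14520 and the NOP58 relatives were named after their values were seen. Promoter motifs and sequences were not analysed here. Alternatives covered scaling, filter, floor, variance prior, choice of feature and leaving out a line.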

Additional observations from a re-analysis of the deposited data

Results flagged for a closer look

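In 2 of the 45 genes the lines lay on opposite sides of wild type, and each line had 1 array, so the difference was not tested. The L7 gene AT3G13580 stood 0.066 below wild type in line 41 and 0.10 above it in line 45, a difference of -0.17. The L10a gene AT5G22440 stood at 0.047 in line 41 but at -0.34 in line 45, and the difference was 0.38. Neither gene was called against wild type.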

How the results depend on the processing

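The count of 30 genes called higher stayed between 29 and 32 under each alternative fitted with all 3 arrays, except the one with no dim filter, where limma made 0 calls among the 45 genes, the other 60S genes, the 40S genes, the biogenesis genes and all features. The lowest adjusted p there was 0.105, and the prior degrees of freedom fell from 6.76 to 1.42. Genes called lower numbered 0, except 1 after quantile normalization. The median change was 1.62 with the dim filter at the 60th percentile, which left 42 of the 45 genes. With 1 line left out, where no test was possible, it ran from 1.40 to 1.53, and the genes at least 2-fold higher ran from 28 to 29. In the list of biogenesis and TOR genes, 2 were called higher after quantile normalization, centring on the median or removal of the trend. As deposited the 1 called was RAPTOR1, and no factor that builds ribosomes was called. Signs turned only for genes that were not called: after quantile normalization AT1G74050 stood at -0.49, AT2G47610 at -0.30, AT3G16780 at -0.50, AT4G02230 at -0.21 and AT4G13170 at -0.19; after removal of the trend AT1G74050 stood at -0.24, AT2G47610 at -0.10 and AT3G16780 at -0.17; with centring on the 75th percentile AT3G13580 stood at -0.046 and AT3G48960 at -0.0060. The cause was not tested. No paired analysis was possible because wild type has 1 array and shares no replicate number with the lines.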

Other observations

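Several features of a gene did not always give the same change. The fourth L11 gene, AT5G45775, which lies outside the 60, had a feature at 7.97, 8.16 and 8.43 in wild type, line 41 and line 45, which did not pass (log2 change 0.32, adjusted p = 0.382 by limma). A second feature of it read 5.57, 7.70 and 7.24, with changes of 2.13 in line 41 and 1.67 in line 45. Features of the L32 gene AT5G46430 read 9.53, 10.33 and 10.52, and 9.17, 10.45 and 10.54. Those of the L36 gene AT3G53740 read 6.26, 8.16 and 8.27, and 6.52, 7.78 and 7.71. In these latter genes both features lay above wild type in both lines.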
